A study of Arabidopsis thaliana with 36 samples.

Results

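Roots moved to fresh medium with 10 mM KNO3 were compared with roots moved to fresh medium with 1 mM KNO3, over all sampled times after the move. The comparison holds 32 of the 36 libraries of the series: the 16 whose titles name 10 mM and the 16 whose titles name 1 mM at 15, 45, 90 and 180 min. The 4 libraries at 0 min were left out. Each 10 mM library has a 1 mM partner of the same time and batch, which gives 16 pairs. All plants were Arabidopsis thaliana of the ecotype Col-0, with no other genotype. They had stood 2 days at 4 °C, had grown on mesh over 1 mM KNO3 medium at 22 °C in 16 h of light and 8 h of dark, and were 7 days old when the mesh was moved 2 h after dawn. Both groups were therefore handled alike and differ in the new medium. Potassium and nitrate rise together from 1 mM to 10 mM as the media are described, so their effects cannot be told apart here. For each replicate, 2 plates per time were pooled, and the batch label gives the replicate its number, 1 to 4.

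Nitrate is taken up by NRT and NPF transporters and is itself a signal in roots. Nitrate reductase turns it into nitrite in the cytosol, and nitrite reductase, which sits in plastids and draws electrons from ferredoxin, turns nitrite into ammonium. In nonphotosynthetic cells the ferredoxin is reduced with NADPH from the oxidative pentose phosphate pathway. Genes of these steps, of cytokinin response and of several repressor families are known to respond within minutes to hours when nitrate is given to Arabidopsis roots that had little of it. The seedlings here had nitrate at 1 mM throughout, so the comparison asks what a higher supply added.

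The RNA was read by BrAD-seq, a digital gene expression method that tags the 3' ends of polyadenylated transcripts. Total counts were 1376404 to 7512410 per library (median 5126926), with medians of 5257565.5 at 10 mM and 4845699.5 at 1 mM. The 10 mM library was the deeper one in 11 of 16 pairs. The median was 2160125.5 in batch 1 and 4874754 to 6547978 in batches 2 to 4. The shallowest library, replicate 4 of 1 mM at 45 min, stood apart from its group: its median correlation with its group mates was 0.911, and the next lowest among the 32 was 0.943. The replicates are biological by their labels, which do not mention separate sowings, so a p-value here refers to the spread among these libraries. Levels below are CPM, the share of a library's counted reads after TMM scaling, except for marker sums, which were not TMM-scaled. Effects are log2 fold changes of 10 mM over 1 mM ± SE, from edgeR's quasi-likelihood test with the batch as a block. Each is the mean of the 4 differences at the 4 times. Medians and ranges of levels over 16 libraries pool the 4 times, so their ratio can be wider or narrower than the fitted effect. The SE was derived from the fold change and its F statistic and is approximate. A gene is called where its Benjamini-Hochberg adjusted p over all 18682 genes tested is under 0.05.

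A small set of genes was called, and each of these differed by little. Of 18682 genes, 37 were called (0.198%), 15 higher (0.0803%) and 22 lower (0.118%) at 10 mM. Higher were NIA1, a nitrate reductase gene, the amino acid transporter family gene UMAMIT35 and the transcription factor gene ABF3. Lower were ERD5, which encodes the proline dehydrogenase of proline breakdown, TMAC2, and AT2G43140, a basic helix-loop-helix (bHLH) gene by its RefSeq description. The called effects had sizes of 0.24 to 0.67 on the log2 scale, with a median of 0.36, which is 1.29-fold. Only AT2G43140 (1.59-fold lower) and AT2G02680 (1.52-fold lower) passed 1.5-fold. At an unadjusted p under 0.05 there were 1508 genes (8.07%), 679 higher (3.63%) and 829 lower (4.44%). The gene just inside the threshold had an adjusted p of 0.0496 and the one just outside 0.0516. These are bulk roots, so fewer cells of a type and less RNA per cell cannot be told apart.

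**Figure D1:**
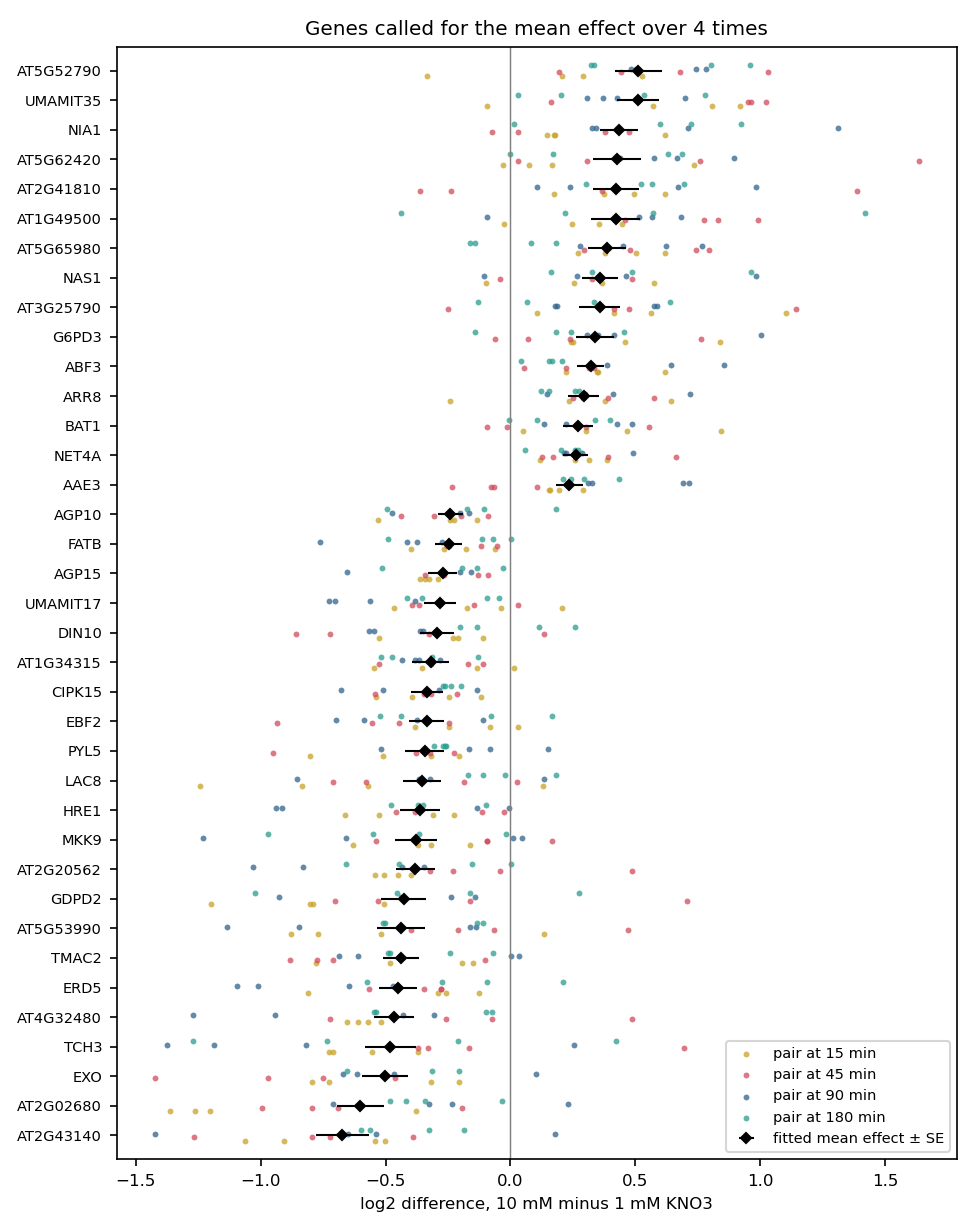
Fitted mean effect (black diamonds, bars ± SE) of the 37 called genes on the log2 scale, with the difference of each of the 16 pairs in log2 CPM as points coloured by time. The 15 genes higher at 10 mM lie at the top and the 22 lower ones below, and most rows have a few pairs on the other side of 0.

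The differences showed within pairs rather than between the 2 sets of 16 libraries. In all 37 called genes the 10 mM and 1 mM levels overlapped over the 4 times. The share of all genes that overlap was not counted, so this does not set the called genes apart. Within pairs, each gene called higher was higher in at least 13 of 16 (2.06% of all genes were), and each called lower was lower in at least 12 of 16 (5.68% were). NET4A, which encodes an actin-binding protein of the Networked family, and ABF3 were higher in all 16 pairs, where 4 genes of all tested were (0.0214%). HRE1, CIPK15 and AGP15 were lower in all 16, where 3 genes of all tested were (0.0161%). The pairs are the data the test itself used, so these counts describe the calls and do not add to them. The same holds for levels printed below at single times, several of them at the time of the widest difference. How many of all genes lack overlap at a single time was not counted, so lack of overlap there adds no support. The called genes were well expressed, with a median of 5.39 log2 CPM against 4.04 over all genes, and 3 of the 37 lay under the latter.

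Of the genes that reduce nitrate or supply the reducing power, NIA1 and G6PD3 rose at 10 mM. Of the 12 genes listed for nitrate reduction and its reducing power, 2 were called higher and 0 lower, 11 had a positive effect, and 9 had an unadjusted p under 0.05 in the higher direction, where 3.63% of all genes did. The list's median was 0.22, against -0.0025 over all genes. All gene lists used here were chosen with earlier results of these data known. Their counts and medians therefore describe the members and are no test of a list. NIA1 (AT1G77760) ran from 121 to 363 CPM (median 192) in the 16 libraries at 1 mM and from 174 to 552 CPM (median 276) at 10 mM. It was higher in 15 of 16 pairs, by 0.43 ± 0.08 or 1.35-fold (95% interval 0.28 to 0.59, adjusted p = 0.00293). At 90 min, where its difference was widest, the 4 levels at 1 mM were 204, 181, 179 and 121 CPM and those at 10 mM 258, 296, 225 and 301 CPM, with no overlap. NIA1 held its call without any single library (adjusted p up to 0.0118), but missed the threshold without batch 4 (0.0893), without 90 min (0.242) and without 180 min (0.0687).

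G6PD3 (AT1G24280), a plastid glucose-6-phosphate dehydrogenase that feeds the pentose phosphate pathway, was the other called member. Its levels were 58.3 to 158 CPM (median 74.3) at 1 mM and 70.7 to 152 CPM (median 103) at 10 mM, and it was higher in 14 of 16 pairs by 0.34 ± 0.08 (adjusted p = 0.0367). The sets overlap widely, and the call was lost without each of 16 of the 32 libraries in turn (adjusted p up to 0.0966), without 3 of 4 batches (up to 0.408) and without 3 of 4 times (up to 0.479). The remaining members had values near the threshold or well short of it. NIR1, the nitrite reductase gene, went from 410 to 955 CPM (median 665) at 1 mM and from 584 to 984 CPM (median 767) at 10 mM, a difference of 0.24 ± 0.06 seen in 14 of 16 pairs (adjusted p = 0.0704). At 90 min NIR1 stood at 553, 518, 614 and 577 CPM at 1 mM and at 738, 786, 714 and 787 CPM at 10 mM, again with no overlap. NIA2, the second nitrate reductase gene, had 0.20 ± 0.06 (adjusted p = 0.175, 14 of 16 pairs). The ferredoxin reductases of roots, RFNR1 and RFNR2, had 0.22 ± 0.06 and 0.23 ± 0.07, the ferredoxin FD3 had 0.21 ± 0.06, and UPM1, which makes a precursor of the sirohaem cofactor of nitrite reductase, had 0.22 ± 0.06. None of these 4 passed the test (adjusted p of 0.139 to 0.2). CNX2, of molybdenum cofactor synthesis, stood at -0.02 ± 0.07.

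**Figure D2:**
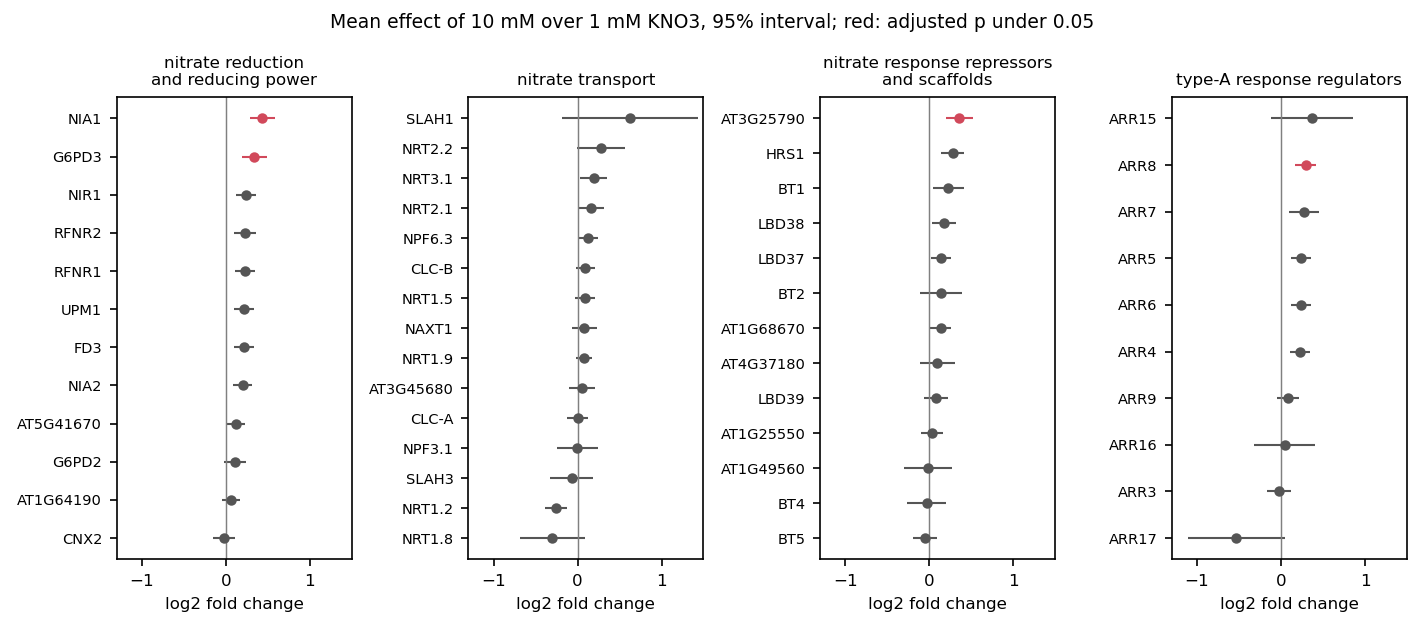
Mean effect of 10 mM over 1 mM as log2 fold change with its 95% interval for the tested members of 4 gene lists, called genes in red. In nitrate reduction 11 of 12 members lie right of 0, while the 15 nitrate transport members spread on both sides.

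The summed RNA of shoot marker genes was also higher at 10 mM in most pairs. The 12 shoot markers, genes of photosynthesis none of which was at 0 reads throughout, summed to 104 to 239 CPM (median 169) at 1 mM and 159 to 270 CPM (median 190) at 10 mM. Marker sums, also those of root markers below, are shares of total counts without TMM scaling, whose factors ran from 0.892 to 1.04. The sum was higher at 10 mM in 13 of 16 pairs, with a mean log2 ratio of 0.17 ± 0.24 (SD, n = 16). Its part in the nitrate reduction values, some of which are also leaf genes, was not tested. Of the 8 shoot markers tested singly, 5 were positive and 3 negative, 0 were called by edgeR's quasi-likelihood test and 2 had an unadjusted p under 0.05, both higher. The photosystem II genes PSBR and PSBO1 had 0.18 ± 0.07 and 0.20 ± 0.09, while the Rubisco small subunit genes RBCS1A and RBCS3B had -0.20 ± 0.16 and -0.39 ± 0.46. Among root markers, the 8 endodermis genes summed higher in 11 of 16 pairs (mean log2 ratio 0.10 ± 0.14), the 8 root tip genes in 6 of 16 (-0.08 ± 0.16), and root hair, xylem and phloem genes in 10, 9 and 9 of 16. Of the 8 root tip genes 7 were negative and 2 had an unadjusted p under 0.05, PLT3 (-0.31 ± 0.09) and PLT1 (-0.30 ± 0.12), both factors of the root stem cell niche. No root marker was at 0 reads throughout and none was called.

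No nitrate transporter gene passed the test. Of 15 tested, 0 were called by edgeR, 11 had a positive effect, 3 had an unadjusted p under 0.05 in the higher direction and 1 in the lower, and the median was 0.08. NRT2.1, the main high-affinity transporter, ran from 234 to 643 CPM (median 433) at 1 mM and from 320 to 666 CPM (median 487) at 10 mM, a difference of 0.16 ± 0.08 in 9 of 16 pairs (adjusted p = 0.612). NRT3.1, its partner protein, had 0.19 ± 0.08. NPF6.3, the dual-affinity transporter and nitrate sensor, had 0.13 ± 0.06; it was higher in 15 of 16 pairs but by so little that it did not pass (adjusted p = 0.573). NRT1.2, a low-affinity transporter of epidermis and root hairs, went the other way, at -0.25 ± 0.07 in 14 of 16 pairs (adjusted p = 0.105). The high-affinity transporters known from nitrogen-starved plants gave no clear value: NRT2.4 had 0.14 ± 0.14 and NRT2.5 -0.65 ± 0.69. NRT2.5 reached no more than 4.52 CPM in any of the 32 libraries and was at 0 in some, so its error spans both directions.

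Repressors and scaffolds of nitrate response had 1 call in 13. AT3G25790, a MYB-like transcription factor gene by its RefSeq description listed with HRS1, had 9.58 to 26.2 CPM (median 18.7) at 1 mM and 12.5 to 35.1 CPM (median 22.4) at 10 mM. It was higher in 14 of 16 pairs, by 0.36 ± 0.08 (adjusted p = 0.0428), and the call was lost without each of 21 of the 32 libraries (adjusted p up to 0.105), without each batch (0.21 to 0.24) and without 3 of 4 times (up to 0.349). HRS1, which represses phosphate and nitrogen starvation responses where nitrate is present, had 0.28 ± 0.07 in 12 of 16 pairs and fell just short (adjusted p = 0.0801). LBD37 and LBD38, which repress nitrogen-responsive genes, had 0.14 ± 0.06 and 0.17 ± 0.07 (adjusted p of 0.532 and 0.525). BT1, a scaffold protein gene, had 0.23 ± 0.09 and BT2, its relative, 0.14 ± 0.13. Over the 13 genes the median was 0.14 and 10 were positive. An unadjusted p under 0.05 was found in 6, all in the higher direction, where 3.63% of all genes had one. Of 17 activators and kinases tested, 0 were called by edgeR, 3 had an unadjusted p under 0.05 in the higher direction, and the median was 0.05. NLP7, the nitrate sensor and chief activator, which is known to be controlled in its place in the cell more than in its transcript, stood at 0.01 ± 0.08. TGA1 had 0.18 ± 0.06 in 14 of 16 pairs and NAC4 0.33 ± 0.13 in 12 of 16 (adjusted p of 0.372 and 0.469).

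Type-A response regulators, which cytokinin induces and which dampen its signal, had 1 called gene of 10 tested. ARR8 (AT2G41310, RR3 in RefSeq) had 26.7 to 60.2 CPM (median 47.9) at 1 mM and 30.5 to 75.6 CPM (median 58.9) at 10 mM, and was higher in 15 of 16 pairs by 0.29 ± 0.06 (adjusted p = 0.0259). Its call was lost without 6 of the 32 libraries in turn (adjusted p up to 0.0719), without each batch (0.087 to 0.34) and without 45, 90 or 180 min (up to 0.353). ARR4, ARR5, ARR6 and ARR7 lay between 0.23 and 0.27, each higher in 13 or 14 of 16 pairs, without passing the test (adjusted p from 0.088 to 0.339). Over the 10 genes the median was 0.23. At an unadjusted p under 0.05 there were 5 higher and 0 lower, where 3.63% and 4.44% of all genes were. ARR17 pointed down with a wide error (-0.53 ± 0.30). None of the 12 genes of cytokinin synthesis and breakdown was called by edgeR, 2 had an unadjusted p under 0.05 in the higher and 1 in the lower direction, and IPT3, a nitrate-responsive synthesis gene, had 0.23 ± 0.18.

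Of the called UMAMIT genes, UMAMIT35 was higher and UMAMIT17 lower at 10 mM. UMAMIT35 (AT1G60050), of a family whose members carry amino acids across membranes, had 8.30 to 25.7 CPM (median 17.3) at 1 mM and 16.1 to 30.5 CPM (median 24.3) at 10 mM. It was higher in 15 of 16 pairs by 0.51 ± 0.09, or 1.43-fold (adjusted p = 0.0017). At 45 min its 4 levels were 11.3, 19.7, 13.4 and 13.998 CPM at 1 mM and 22.5, 22.1, 26.4 and 28.9 CPM at 10 mM, without overlap. The call held without any single library (adjusted p up to 0.00664) and without any batch, and missed the threshold without 90 min (0.0706). UMAMIT17 of the same family was lower, at -0.28 ± 0.06 in 14 of 16 pairs (adjusted p = 0.0367), and lost its call without each of 15 of the 32 libraries (adjusted p up to 0.101), without each batch (up to 0.263), without 3 of 4 times (up to 0.861) and in the additive model (0.0529).

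ERD5 (AT3G30775), the proline dehydrogenase gene that low energy induces, had 34.9 to 176 CPM (median 74.6) at 1 mM and 31.9 to 112 CPM (median 58.6) at 10 mM. It was lower in 15 of 16 pairs, at -0.45 ± 0.08 (1.36-fold, adjusted p = 0.0017). The gap was widest at 90 min, when the 1 mM roots had 104, 141, 158 and 176 CPM and the 10 mM roots 74.8, 65.8, 78.2 and 112 CPM, which overlap in 1 library of each. DIN10, a raffinose synthase family gene named for its induction in the dark, was also called, at -0.29 ± 0.07 in 13 of 16 pairs (adjusted p = 0.0408). MIOX2, a myo-inositol oxygenase gene of the same low-energy list, had -0.35 ± 0.08 and missed the threshold (adjusted p = 0.0599). These 3 were not joined by the rest: of 14 tested members 2 were called lower and 0 higher, 6 were positive, and the median was -0.09. ERD5 missed the threshold without batch 3 (adjusted p = 0.0607), without batch 4 (0.0893) and without 90 min (0.244), while DIN10 did so without each of 23 of the 32 libraries (up to 0.135), without 3 of 4 batches (up to 0.519) and 3 of 4 times (up to 0.674), with 16 pairs as blocks (0.0601) and in the additive model (0.0724).

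**Figure D3:**
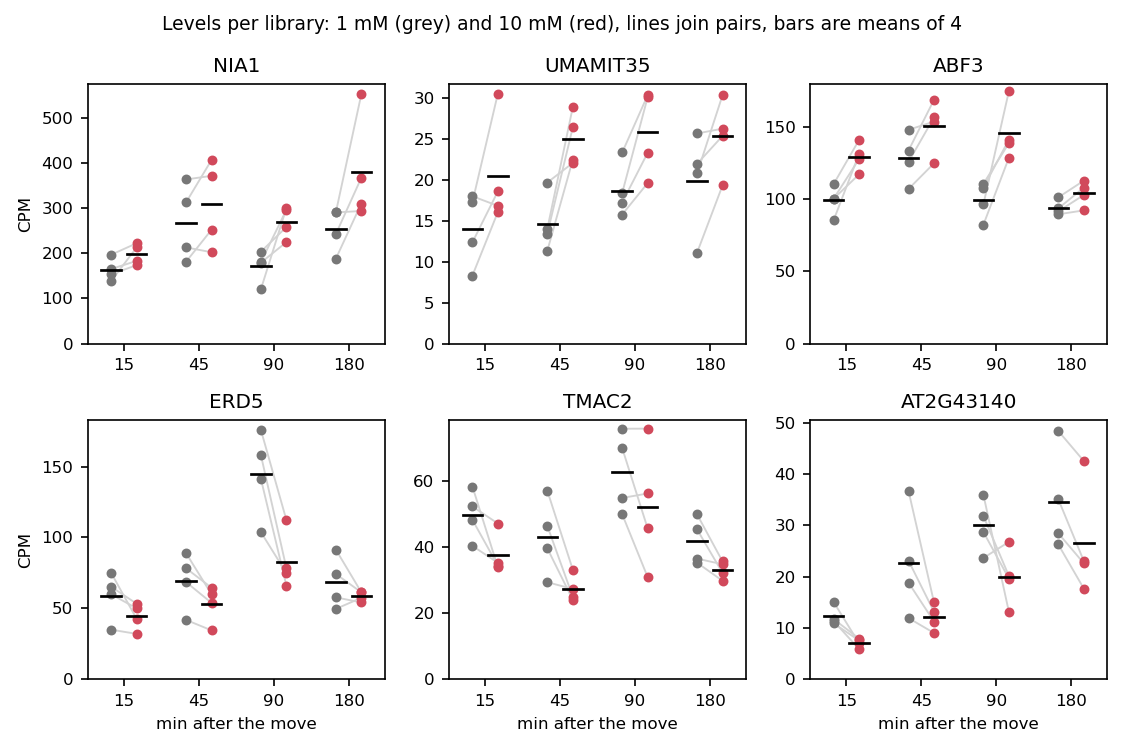
Levels in CPM of 6 called genes in each of the 32 libraries, 1 mM in grey and 10 mM in red, by min after the move, with lines joining pairs and bars at the mean of 4. NIA1, UMAMIT35 and ABF3 are higher and ERD5, TMAC2 and AT2G43140 lower at 10 mM in nearly all pairs, on levels that also differ between times.

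Abscisic acid genes included 1 call in each direction. ABF3 (AT4G34000), a bZIP transcription factor that binds abscisic acid response elements, had 82.3 to 148 CPM (median 101) at 1 mM and 92.2 to 175 CPM (median 130) at 10 mM. It was higher in every pair, by 0.32 ± 0.06 (adjusted p = 0.00207). At 15 min the 1 mM roots had 110, 85.4, 100 and 100 CPM and the 10 mM roots 141, 131, 117 and 128 CPM, so the groups did not overlap, nor did they at 90 min. TMAC2 (AT3G02140), of the family of proteins that bind the abscisic acid factor ABI5, was lower in 14 of 16 pairs, from a median of 49.1 CPM (29.4 to 76.0) at 1 mM to 34.2 CPM (24.1 to 76.0) at 10 mM. Its effect was -0.44 ± 0.07 (1.36-fold, adjusted p = 0.0017). The difference was widest at 45 min, at 57.2, 46.5, 39.7 and 29.4 CPM against 33.2, 25.01, 24.1 and 27.3 CPM, with 1 library of each group in the other's range. Both held without any single library. ABF3 missed the threshold without batch 2 (adjusted p = 0.134), without 15 min (0.089) and without 90 min (0.242), and TMAC2 without batch 2 (0.128).

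No other abscisic acid gene of the list was called. In the list of 8 tested, ABF3 and TMAC2 included, 5 were positive and the median was 0.05. At an unadjusted p under 0.05 there were 2 higher, ABF3 and P5CS1, and 1 lower, TMAC2. RD29A had -0.06 ± 0.12, ABI1 0.05 ± 0.07 and P5CS1, a proline synthesis gene, 0.22 ± 0.07 (adjusted p = 0.319). PYL5, an abscisic acid receptor gene outside that list, was lower in 15 of 16 pairs at -0.34 ± 0.08 (adjusted p = 0.0367). Its levels were 57.8 to 151 CPM (median 98.7) at 1 mM and 44.3 to 125 CPM (median 65.8) at 10 mM, and the call was lost without each of 18 of the 32 libraries (adjusted p up to 0.11), without each batch (up to 0.302) and without 3 of 4 times (up to 0.378).

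Among called genes, the widest effects were those of AT2G43140 and AT2G02680, both lower at 10 mM. AT2G43140, the bHLH gene, had 10.9 to 48.4 CPM (median 24.9) at 1 mM and 5.83 to 42.5 CPM (median 14.05) at 10 mM. It was lower in 15 of 16 pairs at -0.67 ± 0.11 (adjusted p = 0.00135, 95% interval -0.88 to -0.46). At 15 min the levels were 10.9, 15.0, 11.7 and 11.3 CPM at 1 mM and 7.53, 6.97, 7.89 and 5.83 CPM at 10 mM, without overlap, and levels in both groups were higher at the later times. AT2G02680, a cysteine and histidine-rich C1 domain protein gene, had 13.4 to 48.0 CPM (median 24.1) at 1 mM and 7.40 to 31.5 CPM (median 16.0) at 10 mM, and was lower in 15 of 16 pairs at -0.60 ± 0.09 (adjusted p = 0.00135). Its difference was -1.15 ± 0.20 at 15 min and -0.31 ± 0.17 at 90 min. Both genes held without any single library. AT2G43140 missed the threshold without batch 2 (adjusted p = 0.0828) and AT2G02680 without 15 min (0.2).

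Among called genes higher at 10 mM, AT5G52790 had an effect as wide as that of UMAMIT35. It is a gene with CBS and DUF21 domains and had 5.74 to 21.4 CPM (median 14.9) at 1 mM and 8.45 to 29.5 CPM (median 20.7) at 10 mM. It was higher in 15 of 16 pairs by 0.51 ± 0.09 (adjusted p = 0.00486) and missed the threshold without batch 2 (0.127), without batch 3 (0.154), without 90 min (0.242) and without 180 min (0.0731). AT5G65980, of the auxin efflux carrier family by its RefSeq description, was higher in 14 of 16 pairs by 0.39 ± 0.08 (adjusted p = 0.00969). It stood at -0.01 ± 0.14 at 180 min and between 0.46 and 0.55 at the other times, and missed the threshold without batches 2, 3 or 4 (adjusted p of 0.132, 0.308 and 0.0555) and without 90 min (0.244). Another 3 genes without a symbol were higher by 0.42 to 0.43: AT5G62420 (an oxidoreductase, adjusted p = 0.0371), AT2G41810 (a DUF642 protein, adjusted p = 0.0267) and AT1G49500 (adjusted p = 0.0496). Each of these 3 lost its call without 8 or more of the 32 libraries (adjusted p up to 0.115), without 3 or 4 of the batches (up to 0.419) and without 3 of 4 times (up to 0.569). AT1G49500 also lost it with RLE scaling (0.0502) and in the additive model (0.0533). NAS1, which makes the metal chelator nicotianamine, was higher in 13 of 16 pairs by 0.36 ± 0.07 (adjusted p = 0.0123), the 1 called gene among 14 tested for iron uptake and storage, whose median was 0.06. NAS1 held without any single library (adjusted p up to 0.0408) and missed the threshold without batches 2 or 4 (0.263 and 0.0963), without 90 min (0.242) and without 180 min (0.17). Smaller called effects were those of BAT1, an acyltransferase gene tied to brassinosteroids (0.27 ± 0.06, adjusted p = 0.0278), of NET4A (0.26 ± 0.05, adjusted p = 0.0106) and of AAE3, which activates oxalate (0.24 ± 0.05, adjusted p = 0.0372). NET4A had 45.5 to 82.5 CPM (median 67.8) at 1 mM and 62.5 to 95.6 CPM (median 81.7) at 10 mM, and was the higher one at 10 mM in each pair. BAT1 and AAE3 lost their call without 9 and 19 of the 32 libraries (adjusted p up to 0.0619 and 0.0842), without 4 and 3 of the batches (up to 0.404 and 0.421) and without 3 of 4 times (up to 0.291 and 0.861). AAE3 also lost it with 16 pairs as blocks (0.0601) and in the additive model (0.0944). NET4A held without any library, and missed the threshold without any of the batches (adjusted p from 0.0893 to 0.171) and without 15, 90 or 180 min (0.147, 0.242 and 0.0687).

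Signalling genes among those lower at 10 mM came from several pathways. EXO, a gene that brassinosteroid induces and that promotes growth, had 7.93 to 126 CPM (median 32.1) at 1 mM and 12.1 to 90.7 CPM (median 22.4) at 10 mM, a range that spans high levels at 15 min and low ones at 90 and 180 min in both groups. It was lower in 14 of 16 pairs at -0.50 ± 0.09 (adjusted p = 0.00532). At 45 min the groups did not overlap, at 38.8, 40.4, 64.2 and 81.2 CPM against 22.9, 29.2, 32.5 and 30.02 CPM, while at 180 min the difference was -0.10 ± 0.20. In batch 1 its mean paired difference was 0.09 and in batches 2 to 4 it was -0.65, -0.50 and -0.73, which made EXO the 1 called gene of 37 without 1 sign in all 4 batches. EXO missed the threshold without batches 2, 3 or 4 (adjusted p of 0.181, 0.106 and 0.142), without 15 min (0.109), without 45 min (0.0931) and without 90 min (0.133).

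CIPK15, a protein kinase that calcium sensors of the CBL family bind, was lower in every pair, with 29.7 to 47.0 CPM (median 39.3) at 1 mM and 23.5 to 41.8 CPM (median 31.7) at 10 mM. The effect was -0.33 ± 0.06 (adjusted p = 0.00532) and ran only from -0.41 to -0.24 over the 4 times. It held without any single library (adjusted p up to 0.0246) and missed the threshold without batches 2, 3 or 4 (0.0992, 0.0986 and 0.158) and without 15, 90 or 180 min (0.0814, 0.242 and 0.0563). EBF2, an F-box protein that removes the ethylene factor EIN3, was lower in 14 of 16 pairs at -0.34 ± 0.07 (adjusted p = 0.0196). EBF2 missed the threshold without batches 2, 3 or 4 (0.231, 0.224 and 0.0893), without 45 min (0.133) and without 90 min (0.353). The MAP kinase kinase gene MKK9 had -0.38 ± 0.08 in 13 of 16 pairs (adjusted p = 0.0367), lost without each of 18 of the 32 libraries (up to 0.0986), 3 of 4 batches (up to 0.539) and 3 of 4 times (up to 0.259).

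HRE1, an ethylene response factor of low-oxygen response, was lower in all 16 pairs at -0.36 ± 0.08 (adjusted p = 0.0367). Its levels were 19.9 to 95.6 CPM (median 44.2) at 1 mM and 17.3 to 68.4 CPM (median 27.04) at 10 mM, and in spite of the 16 pairs the call was lost without each of 20 of the 32 libraries (adjusted p up to 0.0811), 3 of 4 batches (up to 0.483) and 3 of 4 times (up to 0.278). The other 6 tested genes of low-oxygen response were not called, with ADH1 at -0.19 ± 0.14 and PDC1 at 0.04 ± 0.14. TCH3, a calmodulin-like gene named for its induction by touch, had -0.48 ± 0.10 in 13 of 16 pairs (adjusted p = 0.0267) and was the 1 called gene of 12 tested for touch and wounding, whose median was -0.05. Its call was lost without each of 10 of the 32 libraries (adjusted p up to 0.0748), 2 of 4 batches (up to 0.404) and 3 of 4 times (up to 0.349).

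Of the remaining genes called lower, several encode cell wall or lipid proteins. AGP15 and AGP10, arabinogalactan proteins of the cell surface, had -0.27 ± 0.06 and -0.24 ± 0.05 (adjusted p of 0.0268 and 0.0246). AGP15 ran from 1026 to 1760 CPM (median 1171) at 1 mM and from 854 to 1441 CPM (median 999) at 10 mM and was lower in all 16 pairs. LAC8, a laccase, had -0.36 ± 0.08, GDPD2, a glycerophosphodiester phosphodiesterase, had -0.43 ± 0.09, and FATB, which releases saturated fatty acids in plastids, had -0.25 ± 0.05 (adjusted p = 0.0267 for each of the 3). LAC8 had a median of 38.99 CPM at 1 mM and 31.6 CPM at 10 mM, GDPD2 50.9 and 29.95 CPM, and FATB 107 and 92.6 CPM. These medians pool the times, and those of GDPD2 lie further apart than its fitted effect. All 5 lost their call when single libraries were left out, in 4 to 8 of the 32 fits (adjusted p up to 0.0776), without 3 or 4 of the batches (up to 0.417) and without 2 or 3 of the times (up to 0.656). LAC8 also lost it with 16 pairs as blocks (0.0587). AT4G32480, a DUF506 protein, had 16.8 to 47.4 CPM (median 38.3) at 1 mM and 18.17 to 35.1 CPM (median 26.97) at 10 mM, a difference of -0.47 ± 0.08 in 15 of 16 pairs (adjusted p = 0.00215) and held without any single library. It missed the threshold without batches 2 or 3 (0.127 and 0.0513), without 15 min (0.117) and without 90 min (0.242). AT5G53990, a UDP-glycosyltransferase, AT2G20562, a taximin peptide, and AT1G34315 made up the rest, at -0.44, -0.38 and -0.32 (adjusted p of 0.0367, 0.0174 and 0.0408). They lost their call without 18, 1 and 21 of the 32 libraries, and each without 3 of 4 batches (adjusted p up to 0.419, 0.263 and 0.378) and 3 of 4 times (up to 0.478, 0.306 and 0.246). For AT2G20562 the library was replicate 2 of 10 mM at 45 min (adjusted p = 0.0533).

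Lists of other processes had no called gene by edgeR. All 11 tested jasmonate genes had a negative effect, where 9519 of all 18682 genes did. The median of the 11 was only -0.10, and 2 had an unadjusted p under 0.05 (4.44% of all genes in the lower direction). They were OPR3 (-0.19 ± 0.06) and JAZ10 (-0.20 ± 0.09), a repressor gene that jasmonate induces. Among 14 genes of lateral root initiation, 6 were positive and the median was -0.03. GATA23, a marker of founder cells, had -0.51 ± 0.21 in 12 of 16 pairs at no more than 9.27 CPM (adjusted p = 0.49), LBD18 had -0.39 ± 0.16 and LBD16 -0.25 ± 0.12 (adjusted p of 0.493 and 0.592). LBD29 had 0.02 ± 0.22, IAA14 -0.04 ± 0.12, ARF19 0.01 ± 0.12 and ARF7 0.20 ± 0.09 (adjusted p = 0.579), with TAR2, an auxin synthesis gene, at 0.22 ± 0.10. For the low genes the interval is wide: LBD29 allows -0.41 to 0.44. Of 12 potassium transport genes none was called and 2 had an unadjusted p under 0.05; HAK5, the high-affinity potassium transporter that potassium shortage induces, had 0.23 ± 0.10 in 11 of 16 pairs (adjusted p = 0.517). Phosphate starvation (15 tested), ammonium and amide assimilation (12 tested) and C and S1 bZIP factors (8 tested) had medians of -0.05, 0.01 and 0.01 and 1 or 3 genes with an unadjusted p under 0.05 in the higher direction and 1 in the lower. Of 8 CC-type glutaredoxin genes, a family known to answer to nitrate, 1 had an unadjusted p under 0.05 (AT2G30540, 0.30 ± 0.11), and the median was 0.19; tandem copies in this family may share reads. Early auxin response genes (14 tested) had a median of 0.07 and auxin carriers (9 tested) of -0.08.

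A mean over times can hide effects that turn or come late, so the difference between times was tested in the same model. By edgeR no gene was called for an effect that differs between the 4 times (0.0%; smallest adjusted p 0.241), with 970 genes at an unadjusted p under 0.05 (5.19%), and DESeq2 called 0. No gene was called by edgeR for the mean of 90 and 180 min minus the mean of 15 and 45 min (0.0%; smallest adjusted p 0.354), with 1118 genes at an unadjusted p under 0.05 (5.98%), while DESeq2 called 2. Without a filter on low counts edgeR called 17 and 5. The smallest p between times was that of TED6, a gene of xylem vessel formation, with 0.79 ± 0.17 at 45 min and -0.48 ± 0.16 at 90 min, and -0.01 ± 0.16 and -0.27 ± 0.16 at 15 and 180 min. JAZ10 came next, at -0.89 ± 0.16 at 15 min and 0.36 ± 0.17 at 90 min (adjusted p = 0.365), followed by AT3G02480, CBL1, AT5G19110 and LEP (0.851 to 0.939). LEP, an AP2-type factor of leaf development, had 0.65 ± 0.13 at 15 min and between -0.13 and 0.13 afterwards. Among late minus early effects, APK2B, a protein kinase gene, had 0.49 ± 0.11 and AT4G29930, a bHLH gene, 0.54 ± 0.13, while AT2G43870, a pectin lyase-like gene, had -1.49 ± 0.33. The pathogen defence gene ALD1 had 2.43 ± 0.60 at no more than 10.2 CPM. AT1G15670, a kelch repeat gene, had 0.61 ± 0.15, and AT1G12020 had -0.60 ± 0.15. These genes have mean effects of -0.20 to 0.41, none called.

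**Figure D4:**
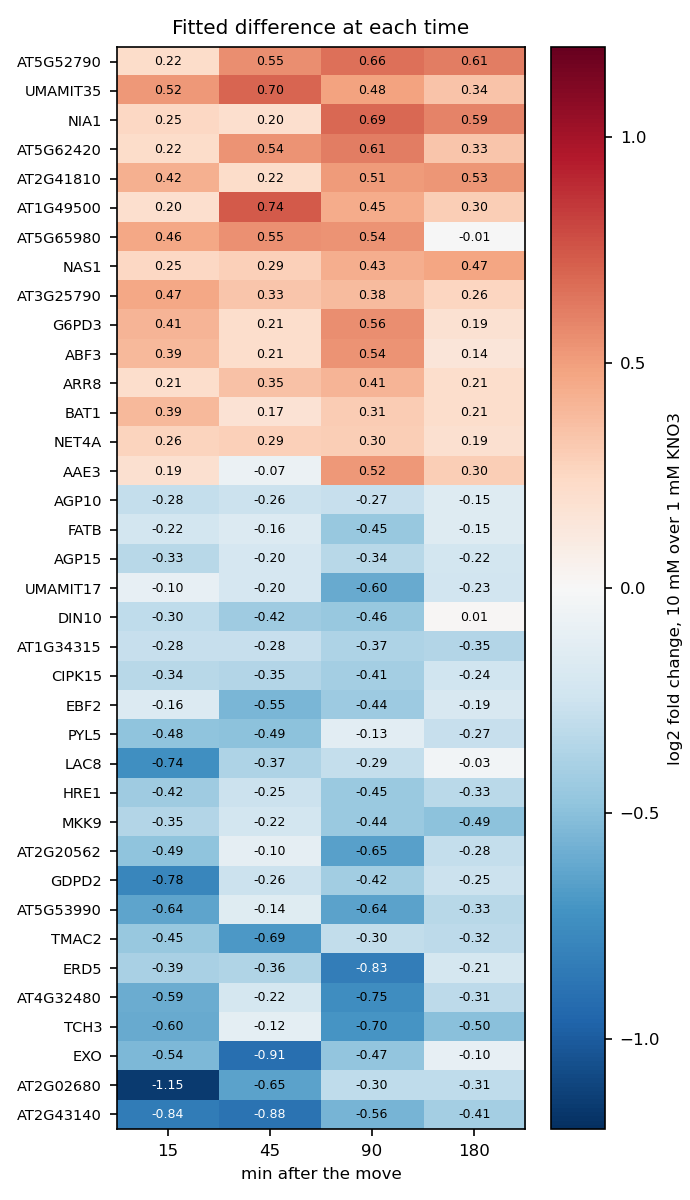
Fitted log2 fold change of 10 mM over 1 mM at each time for the 37 called genes, red for higher and blue for lower at 10 mM. Signs hold along 34 of the rows, and the largest difference of a row is at 90 min in 20 of the 37 genes. The latter count was not made over all genes.

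The sizes of the 37 effects were not alike at the 4 times, but the test between times called none of these genes (smallest adjusted p 0.939). At an unadjusted p under 0.05 there were 8 of the 37 between times and 6 for late minus early. The median size was 0.39 at 15 min, 0.29 at 45 min, 0.45 at 90 min and 0.27 at 180 min. The largest of the 4 differences was that at 90 min in 20 genes, at 45 min in 8, at 15 min in 6 and at 180 min in 3. Neither these median sizes nor these counts were taken over all genes, so they do not set the called genes apart. In 34 of the 37 genes the fitted difference had 1 sign at all 4 times, where 15.2% of all genes did; since the genes were called on the mean of these 4 differences, that count describes the calls and supports nothing. The other 3 were AT5G65980 and DIN10, each near 0 at 180 min, and AAE3, at -0.07 ± 0.11 at 45 min. NIA1 had 0.25 ± 0.16, 0.20 ± 0.15, 0.69 ± 0.15 and 0.59 ± 0.15 at 15, 45, 90 and 180 min. ERD5 had -0.39 ± 0.16, -0.36 ± 0.15, -0.83 ± 0.14 and -0.21 ± 0.15. LAC8 ran the other way in time, from -0.74 ± 0.15 at 15 min to -0.03 ± 0.16 at 180 min.

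The number of calls changed when the batch block, a single batch or a single time was left out. Without the batch as a block no gene was called by edgeR, the smallest adjusted p was 0.0591, and 857 genes had an unadjusted p under 0.05. The biological coefficient of variation, the spread of a gene between like libraries, was 12.3% with the block and 17.2% without. Leaving out batches 1, 2, 3 and 4 left 26, 4, 12 and 11 calls, and leaving out 15, 45, 90 and 180 min left 12, 72, 4 and 15. These fits without a batch or a time all leave out the same number of libraries, so their counts differ from one another at equal size. The part of the smaller size in the change from 37 calls was not tested. Leaving out single libraries gave 16 to 61 calls and stayed within 1.5 times of 37 in 26 of 32 fits. The 6 exceptions were replicate 2 of 10 mM at 45 min (16 calls), of 1 mM at 90 min (17) and of 10 mM at 90 min (22), replicates 1 and 4 of 10 mM at 15 min (22 and 23), and replicate 4 of 1 mM at 45 min (61), the library that stands apart. DESeq2 called 82 genes, 41 in each direction, among them 36 of the 37, and gave no adjusted p for AT5G53990. Of the 37, there were 16, 33, 27 and 27 that lost the call without batches 1, 2, 3 and 4, and 26, 8, 33 and 23 without 15, 45, 90 and 180 min. No called gene changed direction in a setting that gave it an adjusted p. Genes called without 1 batch had the same sign in that left-out batch in 50 of 53 cases (94.3%), where 52.5% to 58.1% of all genes did. A gene called in several of these fits counts more than once, and 26 of the cases come from the fit without batch 1. UMAMIT35 and AT2G02680 held without any batch and any library, and AT2G43140 and TMAC2 without any time and any library.

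**Figure D5:**
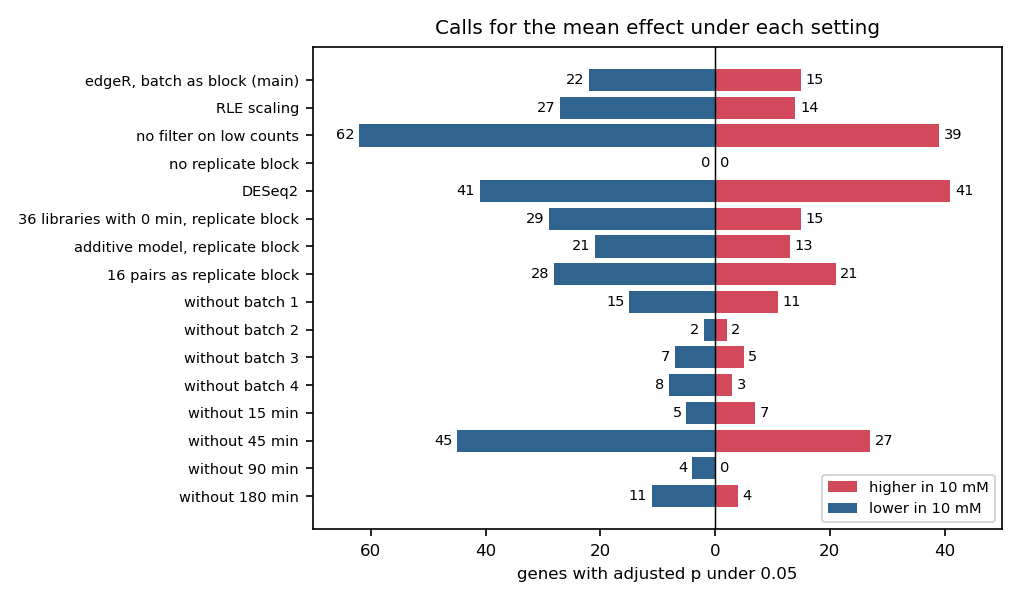
Number of genes called lower (blue, left) and higher (red, right) at 10 mM under each setting, counts printed at the bars, with the 15 higher and 22 lower of the reported fit on top. Calls fall to 0 without the block and to 4 without batch 2 or without 90 min, and rise to 72 without 45 min.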

How the data were processed

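RNA of Arabidopsis roots was read in 36 libraries, of which 32 enter here. The deposited tables, 1 for each library, hold whole-number read counts by gene that are not normalized, as their values show. FastQC, Bowtie2, SAMtools and HTSeq with genome build TAIR10 are named in the submitters' processing notes; the sources used here do not give their versions, settings or handling of strand. Overlapping, antisense or near-identical genes may therefore share reads. There were 32833 identifiers with 0 summary lines, of which 32548 matched a RefSeq table of assembly TAIR10.1, used for names and descriptions only, since its build bears another name. Of 389 list members, 26 have no symbol there and are printed by identifier. Sequences and coordinates are not used here.

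Groups and batches came from the labels, 4 libraries in each of 8 groups. Replicate numbers pair libraries because the labels name them as batches: after removal of the group mean, paired libraries correlated at 0.0238 to 0.406, and above 0.1 in 14 of 16 pairs. Over 48 replicate pairs chi-square per degree of freedom was 2.62 to 11.6, so each library counted as 1 sample.

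The counts as deposited were fitted with edgeR 4.0.16 (R 4.3.3): TMM scaling, filterByExpr over 8 groups (18682 genes), 1 coefficient per group plus batch, quasi-likelihood F tests, two-sided, adjusted over all genes tested, at 0.05 with no minimum fold. Pair differences of genes are in log2 CPM with a prior count of 2, and printed CPM of genes are shares of the TMM-scaled library size. Marker sums and their log2 ratios use a library's total count, without TMM scaling or a prior count. Alternatives were RLE scaling, no low-count filter, no block, DESeq2 1.42.0, all 36 libraries, an additive model, 16 pairs as blocks, and leaving out each library, batch and time. The check of signs in the left-out batch was added after the data were seen.

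The comparison, the 35 gene lists and the rule for named genes were chosen with earlier results of these data known. The rule takes, of the called genes at 1 log2 CPM or more with 1 sign in 4 batches, the 10 largest and 10 smallest effects, the 6 smallest p-values in each direction, up to 4 called members per list, the 6 smallest p-values between times and the 4 in each direction for late minus early, and 18 genes whatever their result. Named outside it, after their values were seen, were the called genes LAC8, PYL5, EBF2, CIPK15, AT1G34315, UMAMIT17, AGP15, FATB, AGP10, AAE3 and BAT1, and uncalled list members. On simulated counts of 18587 genes with 50 changed per fold, the test of the mean effect recovered 54% at 1.25-fold, 88% at 1.5-fold, 94% at 2-fold and 100% at 4-fold, with 5 false calls. All folds were planted in the same run, the 2-fold and 4-fold ones beyond any called effect here. The counts were drawn from the fitted model. The data differ from this setting, so these rates may be too favourable.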

Additional observations from a re-analysis of the deposited data

Results flagged for a closer look

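In 2 genes the mean paired difference of 1 batch lay far from those of the other 3. AT4G32480, called lower, had -0.17 in batch 4 against -0.54, -0.54 and -0.52 in batches 1 to 3. AT3G25790, called higher, had 0.72 in batch 1 against 0.28, 0.26 and 0.34 in batches 2 to 4. The gap was examined in 66 called or named genes and in the total counts of 8 groups, and chance marks about 1 in 20 such groups of 4.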

How the results depend on the processing

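The 37 calls (15 higher, 22 lower) became 101 (39, 62) without a low-count filter, 82 (41, 41) with DESeq2 and 0 (0, 0) without the replicate block. They became 12 (7, 5) without 15 min, 72 (27, 45) without 45 min, 4 (0, 4) without 90 min and 15 (4, 11) without 180 min. Leaving out single libraries or batches gave 4 to 61 calls, 2 to 23 higher and 2 to 40 lower. RLE scaling (41), all 36 libraries (44), an additive model (34) and 16 pairs as blocks (49) stayed within 1.5 times of 37. Without the low-count filter 17 genes differed between times and 5 between late and early; DESeq2 gave 0 and 2, and leaving out libraries or batches 0 to 1 and 0. The causes were not tested.

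No called gene changed sign in the 47 settings, where AT5G53990 had no adjusted p with DESeq2 and was not counted there, and 22 of 37 lost the call without at least 1 library. Sign changes were met in uncalled effects near 0. With libraries or batches left out, ARF19 ran from -0.0996 to 0.072, IAA14 from -0.151 to 0.0442, LBD29 from -0.14 to 0.231, NLP7 from -0.0619 to 0.0836, and the late minus early value of CBL1 from -0.0651 to 0.19. ARF19 was also -0.0139 with 16 pairs as replicate block, -0.0243 without 45 min and -0.0056 without 180 min, and IAA14 0.0125 without 90 min. NLP7 was -0.0085 without 45 min and -0.0053 without 180 min, LBD29 -0.0541 and -0.0863 without 45 and 90 min, and NRT2.4 -0.0089 without 15 min.

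On simulated counts of 18587 genes, 54% of the genes changed by the smallest fold tried were recovered for the mean effect, so effects of the size seen here can be missed at this depth.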
